A study of Danio rerio with 6 samples.

Results

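The aryl hydrocarbon receptor (AhR) genes of the zebrafish were followed here, with the genes of the proteins that work with the receptor and of those that switch it off. The members were chosen by gene symbol, and the 8 described were among the 21317 genes of the expression table. They were 3 receptors (ahr1a, ahr1b and ahr2), 2 partners (arnt and arnt2) and 3 feedback genes (ahrra, ahrrb and tiparp). Each symbol stood on a single row, and all 8 had enough reads to be tested.

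RNA was sequenced from embryos of the zebrafish line Tg(c-mybhyper:GFP), a leukemia model in which hyperactive c-myb expands myelopoiesis. The Tan I group had been kept in 60 µM Tan I, a diterpene of the herb Salvia miltiorrhiza, from 30 hpf (hours post-fertilization) until collection at 72 hpf, and the DMSO group in the solvent over the same time. There were 3 libraries in each group. Both groups carried the transgene, and wild type embryos were not analysed here. How many embryos went into a library was not stated, and nothing said whether the libraries came from separate clutches, so the p-values measure the spread between these libraries.

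The AhR is a transcription factor of the bHLH-PAS family that is activated by small molecules. Without a ligand it waits in the cytosol, bound to Hsp90, p23 and other chaperone proteins. With a ligand it moves into the nucleus, pairs with ARNT and binds xenobiotic response elements near its target genes, of which the cytochrome P450 gene cyp1a is the best known. Among the targets are also repressors of the receptor itself. The AhR repressor AHRR has been proposed to compete for ARNT and for DNA. TIPARP attaches ADP-ribose to the receptor, which leads to its loss. Zebrafish have several receptor genes, of which ahr2 carries most of the toxicity of dioxin in the embryo, and a pair of AHRR genes, ahrra and ahrrb.

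The table of all libraries held 20451593 to 24932190 reads in the Tan I libraries and 15874701 to 16959503 in the DMSO libraries, and the depths of the groups did not overlap. The members took 0.0471% to 0.049% of these reads in Tan I libraries and 0.0321% to 0.0349% in DMSO libraries. Of the 23 marker genes listed for embryonic tissues, 22 were in the table and none was at 0 in all libraries, with liver, muscle, skin, vessel, blood, eye and nervous system markers among them. Of these 22, 1 was higher and 2 were lower at a limma adjusted p under 0.05, while edgeR called 3 and DESeq2 called 5 of them. Over all 20836 tested genes edgeR called 561 and DESeq2 called 653. The limma calls are 13.6% of the list, beside 2.57% of all tested genes. Their summed normalized count was 335490 to 389194 in Tan I libraries and 379856 to 457392 in DMSO libraries. The rod opsin gene rho (log2 fold change -0.73, limma adjusted p 8.54e-05) and the liver transferrin gene tfa (-0.73, limma adjusted p 0.000303) were the lower ones, and the glial gene gfap (0.26, limma adjusted p 0.042) the higher one. The other listed liver genes, fabp10a and cp, had log2 fold changes of -0.53 and 0.19, and the neutrophil genes mpx and lyz had 0.40 and 0.43. The skin genes krt4 and krt5 had -0.47 and -0.10. The exocrine pancreas gene ela2 had the largest change of the list (-1.06, limma adjusted p 0.096). None of these genes was past the threshold of limma. In whole embryos, fewer cells of a type and less RNA per cell cannot be told apart, and the part of these tissues in the results on the members was not tested.

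After Tan I, the receptor gene ahr2 and both AhR repressor genes were higher, the receptor gene ahr1b was lower, and the partner genes lay within the spread of the libraries. Values are normalized read counts, that is reads per gene divided by the size factor of the library. The test was limma on log2(value + 1) across 20836 genes, and a gene was called at a Benjamini-Hochberg adjusted p under 0.05. Of the 8 members 4 were called (ahr1b, ahr2, ahrra and ahrrb), where 2.57% of all tested genes were called. By direction, 3 members were higher after Tan I, against 2.07% of all tested genes, and 1 was lower, against 0.504%. The same 4 members were those whose Tan I and DMSO values did not overlap, and the groups did not overlap for 21.1% of all tested genes.

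**Figure D1:**
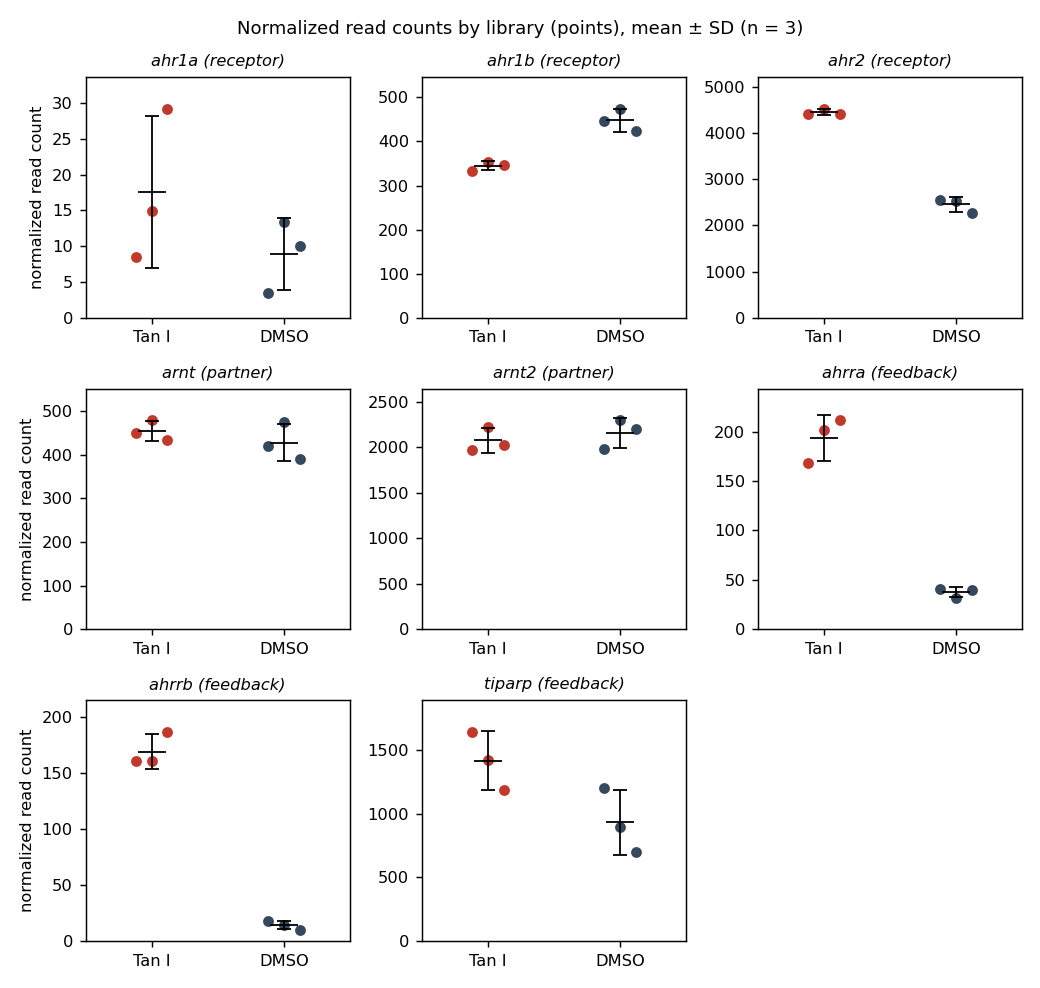
Normalized read counts of the 8 members in each library, with Tan I libraries left of DMSO libraries in each panel. Points are libraries, horizontal marks are means and error bars are SDs (n = 3). The groups are apart for ahr1b, ahr2, ahrra and ahrrb and overlap for the other 4 members.

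Among the feedback genes, ahrrb changed most. Its normalized read count was 160.1, 160.1 and 187 in Tan I replicates 1 to 3, against 17.3, 14.6 and 10.0 in DMSO replicates 1 to 3. The lowest Tan I library was thus far above the highest DMSO library. The mean was 169 ± 15.3 in Tan I and 14.0 ± 3.70 in DMSO (SD, n = 3), which is 12.1-fold higher in Tan I. For ahrrb (ENSDARG00000052618) the log2 fold change was 3.53 ± 0.23 (SE), with a 95% confidence interval of 3.05 to 4.02 and a limma adjusted p of 2.05e-06. Of the 20836 tested genes, ahrrb had the third highest log2 fold change. The DMSO values of ahrrb rested on 15, 12 and 9 reads, and those of Tan I on 206, 171 and 217 reads.

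The other repressor gene, ahrra (ENSDARG00000099702), had normalized read counts of 168, 201 and 212 in Tan I libraries and 40.5, 31.6 and 40.0 in DMSO libraries. Again every Tan I library lay above every DMSO library. The mean was 194 ± 22.9 in Tan I and 37.4 ± 5.01 in DMSO (SD, n = 3), 5.18-fold higher in Tan I. On the log2 scale ahrra was 2.34 ± 0.17 (SE) higher, at rank 20 of the tested genes (limma adjusted p 4.72e-06). The repressor genes ahrra and ahrrb both stayed called in each of the alternative fits in which they were tested, including those that left out a library, with log2 fold changes of 2.10 to 2.46 for ahrra and 2.91 to 3.70 for ahrrb.

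The third feedback gene, tiparp (ENSDARG00000061841), encodes the ADP-ribosyltransferase that acts on the receptor. It had 1644, 1425 and 1183 normalized reads in Tan I libraries, against 1203, 892 and 701 in DMSO libraries. The groups overlapped, since Tan I replicate 3 lay just under DMSO replicate 1. Its mean was 1417 ± 231 in Tan I and 932 ± 254 in DMSO (SD, n = 3), a log2 difference of 0.63 ± 0.16 (SE) by limma, with a 95% confidence interval of 0.28 to 0.98 and a limma adjusted p of 0.064, so it was not called. The coefficient of variation of tiparp was 16.3% in Tan I and 27.2% in DMSO, whereas that of ahr2 was 1.54% in Tan I and 6.39% in DMSO. Without Tan I replicate 3 the adjusted p of tiparp was 0.0158, and without DMSO replicate 1 it was 0.00602, with log2 fold changes of 0.75 and 0.83. Without any of the other 4 libraries it was 0.171 to 0.252, with log2 fold changes of 0.44 to 0.62.

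Of the receptors, ahr2 (ENSDARG00000021833) was higher after Tan I. Its normalized read count was 4400.4, 4527 and 4418 in Tan I libraries and 2551, 2533 and 2271 in DMSO libraries. The Tan I libraries lay close together, well above all DMSO libraries. The mean was 4448 ± 68.6 in Tan I and 2452 ± 157 in DMSO (SD, n = 3), a 1.81-fold rise. On the log2 scale the rise was 0.86 ± 0.07 (SE), with a 95% confidence interval of 0.72 to 1.00 and a limma adjusted p of 7.26e-06. In all 18 alternative fits ahr2 was called, with log2 fold changes of 0.81 to 0.89.

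In contrast, ahr1b (ENSDARG00000023537), a receptor gene next to ahr2 in the genome, was lower after Tan I. The normalized read count of ahr1b was 333, 354 and 348 in Tan I libraries, against 446, 475 and 423 in DMSO libraries. The highest Tan I library lay under the lowest DMSO library. The mean was 345 ± 10.5 in Tan I and 448 ± 26.1 in DMSO (SD, n = 3), and Tan I had 0.77 times the DMSO level. On the log2 scale this was -0.37 ± 0.09 (SE), and the limma adjusted p of 0.0436 was near the threshold. This call was lost without any single library (limma adjusted p 0.125, 0.131 and 0.0653 without Tan I replicate 1, 2 or 3, and 0.0975, 0.239 and 0.0635 without DMSO replicate 1, 2 or 3) and without the mean-variance trend (0.122), while the log2 fold change stayed between -0.42 and -0.33 in all 18 alternative fits. That ahr1b and ahr2 neighbour each other was read from the RefSeq annotation of the assembly GRCz12tu, which is not the build of the expression table.

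The third receptor gene, ahr1a (ENSDARG00000020046), was near the detection limit of the table. It had 11, 16 and 34 reads in Tan I libraries and 3, 11 and 9 reads in DMSO libraries, or 8.55, 15.0 and 29.3 against 3.47, 13.4 and 10.0 normalized reads. The groups overlapped, and Tan I replicate 3 was the highest library. With a mean of 17.6 ± 10.6 in Tan I and 8.94 ± 5.03 in DMSO (SD, n = 3), the log2 difference was 0.90 ± 0.52 (SE), at a limma adjusted p of 0.441. The 95% confidence interval of -0.22 to 2.03 held both no change and a rise as large as that of ahr2, so a change of ahr1a was not detectable at this depth. The summed normalized count of the 3 receptor genes was 4742, 4896 and 4795 in Tan I libraries and 3001, 3021 and 2704 in DMSO libraries, which is 1.65-fold higher in Tan I. Of the reads on receptor genes, not corrected for gene length, ahr2 took 92.5% ± 0.33 in Tan I and 84.3% ± 0.64 in DMSO (SD, n = 3), and ahr1b took 7.17% ± 0.12 in Tan I and 15.4% ± 0.47 in DMSO.

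**Figure D2:**
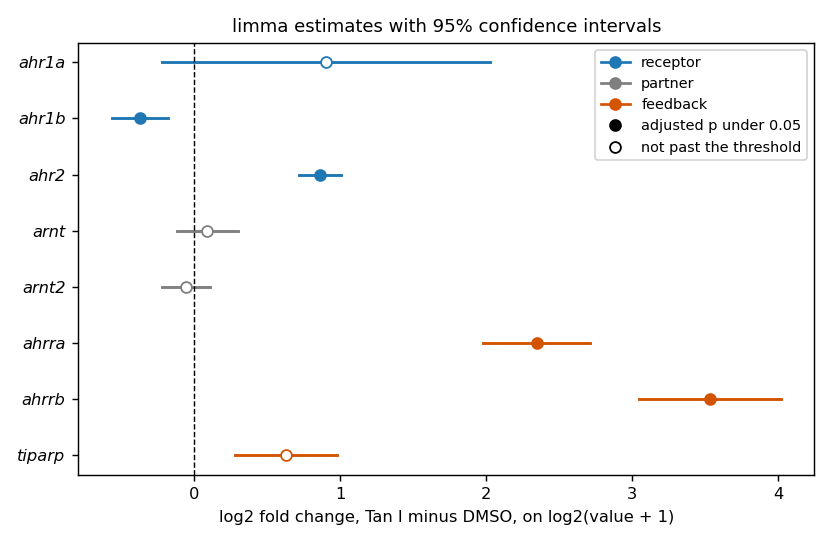
Log2 fold changes of the 8 members (Tan I minus DMSO, on log2(value + 1)) with 95% confidence intervals from limma, coloured by role. Filled points passed an adjusted p of 0.05. The intervals of arnt and arnt2 are narrow and hold 0, that of ahr1a is wide and reaches just into that of ahrra, and the points of ahrra and ahrrb lie to the right of all others.

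Neither of the partner genes was called by limma, edgeR or DESeq2, and 0 of the 2 had an unadjusted limma p under 0.05. Limma called 2.57% of all tested genes, so 0 of 2 is near that share and the count is no result about the partners. The gene arnt (ENSDARG00000021855), whose product pairs with the activated receptor on DNA, had 450.1, 479 and 434 normalized reads in Tan I libraries and 419.6, 475 and 389 in DMSO libraries. The values overlapped, and the groups differed by 0.09 ± 0.10 on the log2 scale (SE, limma adjusted p 0.705). Its 95% confidence interval ran from 0.923-fold to 1.23-fold. The paralog arnt2 (ENSDARG00000103697), which is known for its role in the developing brain, had 1971, 2227 and 2024 normalized reads in Tan I libraries and 1978, 2299 and 2206 in DMSO libraries. These values overlapped as well, with a log2 difference of -0.06 ± 0.08 (SE, limma adjusted p 0.777) and an interval of 0.857-fold to 1.08-fold. A rise of the size of that of ahr2 was outside the intervals of both partners.

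**Figure D3:**
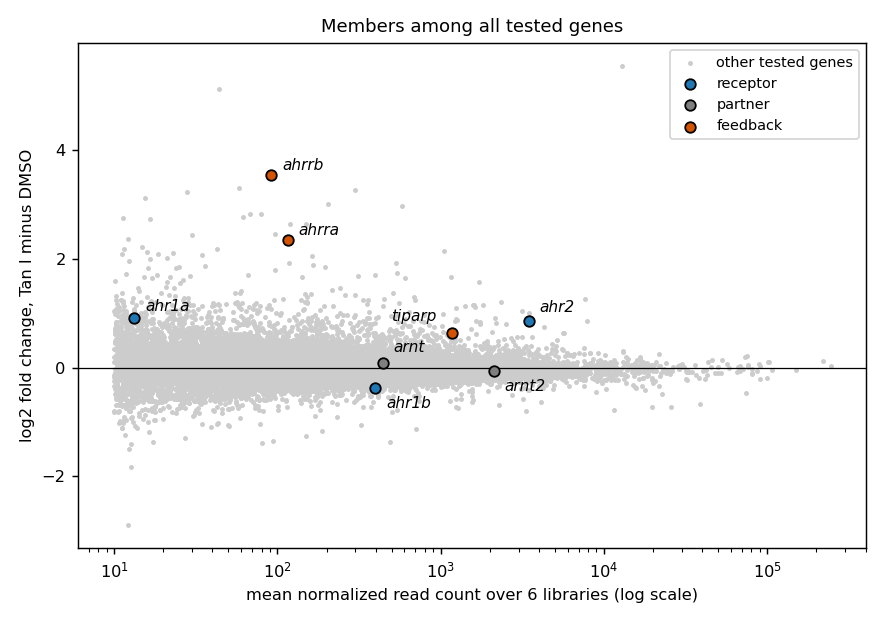
Log2 fold change (Tan I minus DMSO) against the mean normalized read count over the 6 libraries (log scale) for 20836 tested genes, with the 8 members marked by role. The repressor genes ahrrb and ahrra stand among the largest rises at means of 91.5 and 115, while ahr2 has a smaller fold change at a mean of 3450.1, the highest of the members.

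The roles were then set against each other. The median log2 fold change was 2.34 for the 3 feedback genes, beside -0.0067 for all tested genes. The receptors did not move together, with 0.86 (ahr2), -0.37 (ahr1b) and an uncalled 0.90 (ahr1a). The DMSO mean of ahr1a, 8.94, was under the filter of 10, so this gene was tested only through its Tan I values. The partners had 0.09 (arnt) and -0.06 (arnt2). For receptors and partners together the median was 0.09, with values from -0.37 to 0.90, and for the feedback genes the values ran from 0.63 to 3.53. In each library, the mean log2 level of the feedback genes was compared with that of the receptors and partners. In this comparison ahr1a, with its few reads, weighed as much as each other receptor or partner. The feedback genes were lower by this measure in every library, by -0.23, -0.44 and -0.55 in Tan I libraries and by -1.79, -2.56 and -2.52 in DMSO libraries. The distance between the roles was thus smaller in each Tan I library than in each DMSO library, and the difference of the means was 1.88 on the log2 scale. As the members were chosen with results known, no test was made on this score. The order of the roles itself says nothing about levels of protein or of RNA molecules, since gene lengths were not corrected for.

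Ratios of the reads of a pair of members within a library do not depend on how the libraries were scaled. They were computed for 6 pairs, chosen after the values were seen, and are given as a description with no test. The log2 ratio of ahr2 to ahr1b was 3.72, 3.68 and 3.67 in Tan I libraries and 2.52, 2.42 and 2.43 in DMSO libraries. The groups did not overlap, and the mean ratio of the neighbouring receptor genes was 1.24 log2 units higher in Tan I. The log2 ratio of ahrrb to ahrra was -0.07, -0.33 and -0.18 in Tan I libraries and -1.22, -1.12 and -2.0 in DMSO libraries. The reads of ahrrb were therefore fewer than those of ahrra in every library of both groups. The gap was smaller in each Tan I library than in any DMSO library (difference of the mean log2 ratios 1.25).

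Relative to the receptor ahr2, both repressor genes were higher in every Tan I library than in any DMSO library, with a difference in log2 ratio of 1.51 for ahrra and 2.77 for ahrrb. The log2 ratio of tiparp to ahr2 was -1.42, -1.67 and -1.90 in Tan I libraries and -1.08, -1.50 and -1.70 in DMSO libraries. The groups overlapped, and the difference was -0.23. The ratio of arnt2 to arnt was 2.13, 2.22 and 2.22 in Tan I libraries and 2.24, 2.28 and 2.50 in DMSO libraries on the log2 scale. These groups did not overlap, but the difference of -0.15 was of the size of the spread among the DMSO libraries (SD 0.14).

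**Figure D4:**
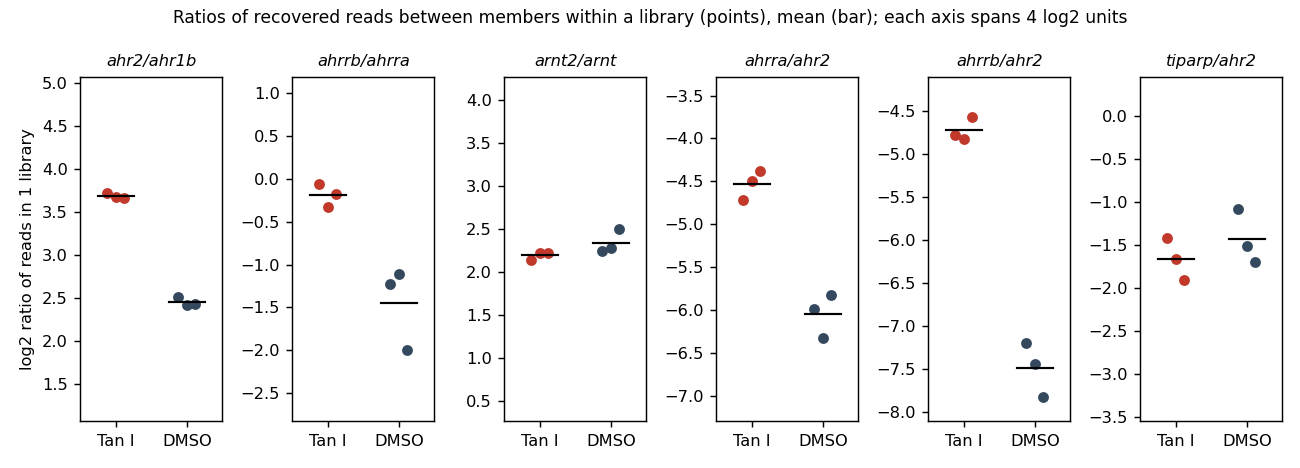
Log2 ratios of recovered reads between pairs of members within each library, with Tan I left of DMSO. Points are libraries, bars are means, and each vertical axis spans 4 log2 units. The ratios ahr2/ahr1b, ahrrb/ahrra, ahrra/ahr2 and ahrrb/ahr2 are higher in every Tan I library than in any DMSO library, and tiparp/ahr2 overlaps.

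Other genes of the pathway were compared next. Of 15 listed targets of the receptor outside the members, 13 were tested, and 9 were called, all of them higher. This is 69.2% of the list, beside 2.57% of all tested genes, and the median log2 fold change was 0.62. The list was chosen from knowledge of the pathway with earlier results of these data known. The P450 gene cyp1a had 21051, 25031 and 29308 normalized reads in Tan I libraries and 849.6, 482 and 366 in DMSO libraries. Its log2 fold change was 5.55 (limma adjusted p 3.19e-08), and that of its relative cyp1c2 was 2.97 (limma adjusted p 1.98e-08). The gene wfikkn1 had 76.95, 99.2 and 81.7 normalized reads in Tan I libraries and at most 2 reads in any DMSO library, which is at least 24.7-fold higher against a floor of 3 reads per library. Its DMSO mean of 1.55 was under the filter on the mean, so wfikkn1 was tested only through its Tan I values. It is counted among the 9 called targets, but its direction was fixed by that filter. The other called targets, named after their values were seen, were cyp1b1, ugt1b1, ptgs2b, foxq1a, foxq1b and nfe2l2a, with log2 fold changes of 0.41 to 1.68. The tested targets that were not called were ptgs2a (log2 fold change 0.61), nqo1 (0.31), the P450 gene cyp1d1 (0.07) and the cartilage regulator gene sox9b. Of the tested targets, sox9b was the only one with a value under 0 (log2 fold change -0.35, limma adjusted p 0.204).

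A list of chaperone and co-chaperone genes was also measured, among them those of chaperones that hold the receptor in the cytosol. Of the 18 tested genes, limma called 0 higher and 1 lower, and edgeR and DESeq2 also called 1 in all. This is 5.56% of the list, beside 2.57% of all tested genes. Of the 18, 2 had an unadjusted limma p under 0.05, and the median log2 fold change was -0.01. The called gene was aipl1, whose product serves photoreceptors in mammals. Its normalized read count was 109, 109 and 110.1 in Tan I libraries and 159.5, 176 and 163 in DMSO libraries (log2 fold change -0.60, limma adjusted p 0.022). The rod opsin gene rho, given above, was lower in the same libraries, and the part of photoreceptors in the fall of aipl1 was not tested. The values nearest to a call were otherwise those of fkbp8 (log2 fold change 0.18), hsp90aa1.2 (0.19) and ahsa1a (0.16) among those above 0, and those of cdc37 (-0.14) and fkbp4 (-0.08) among those under 0.

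Other members of the bHLH-PAS family, some of which also pair with ARNT, were measured as well. Of 20 tested genes 0 were called by limma, edgeR or DESeq2. Limma called 2.57% of all tested genes, so 0 of 20 is near that share and no result about the family. The median log2 fold change was -0.03. The share of all tested genes with an unadjusted limma p under 0.05 is not given here, and in this list 4 had such a p. The hypoxia factor genes hif1aa (log2 fold change 0.32), epas1a (0.24) and hif1al (0.26) and the clock gene arntl2 (-0.26) were these 4, with limma adjusted p between 0.163 and 0.263. Next among the values under 0 were the coactivator gene ncoa1 (-0.18) and hif1al2 (-0.39). Of 18 tested coactivator and corepressor genes 0 were called by limma, edgeR or DESeq2, which is again near 2.57% and no result about the list. Among the 18, 1 had an unadjusted limma p under 0.05, the arginine methyltransferase gene carm1 (log2 fold change -0.14). The others with the smallest p were nrip1b (0.17), sp1 (0.06) and sin3aa (0.05) above 0, and smarca4a (-0.12) and ep300b (-0.10) under 0, and the median of the list was -0.04.

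**Figure D5:**
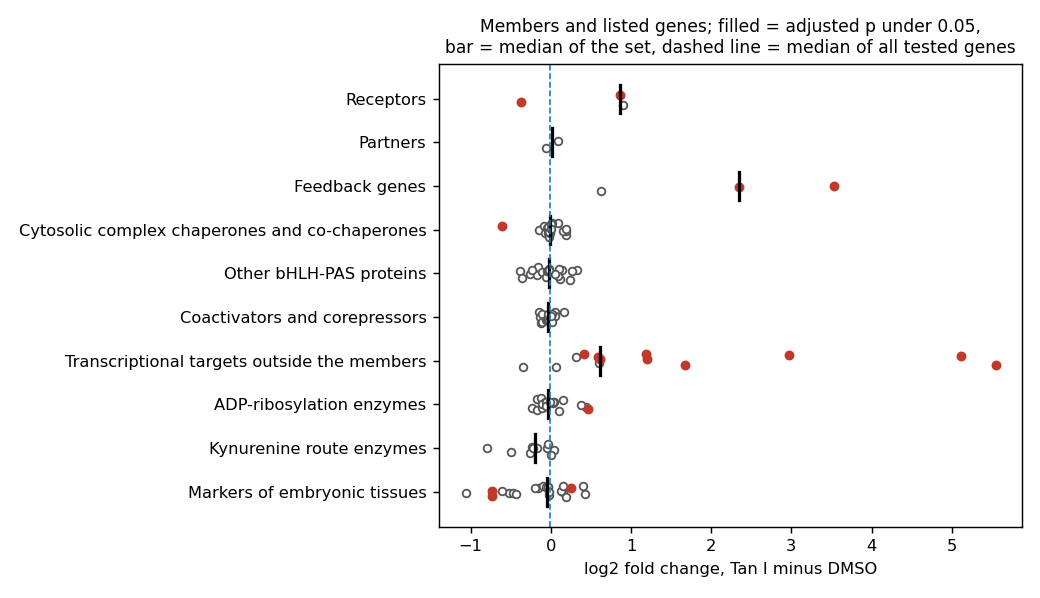
Log2 fold changes (Tan I minus DMSO) of the members by role and of the genes of 7 lists, with each point a gene. Filled points passed a limma adjusted p of 0.05, bars are medians and the dashed line is the median of all tested genes (-0.0067). Called were 2 of 3 receptors (1 higher and 1 lower), 0 of 2 partners and 2 of 3 feedback genes. Of the transcriptional targets 9 of 13 were called, with wfikkn1 among them, which was tested only through its Tan I values. The bHLH-PAS, coregulator and kynurenine lists hold 0. Limma called 2.57% of all tested genes, so 0 is near that share and no result about the partners or these lists.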

How the data were processed

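The authors sequenced paired-end Illumina libraries, aligned the reads to GRCz11 with STAR, removed reads mapped to several places, counted them per gene with featureCounts and normalized them with DESeq2 (tool versions not given in the sources used here). The deposited signal values are counts divided by 1 size factor per library. Columns of the authors' own comparison (6 columns, with fold changes and p-values) were not used. All values were whole multiples (tolerance 0.001) of the smallest value above 0 in their library, so 100% of values were turned back into whole reads. The totals cover the 21317 rows of the table, whose lowest mean was 7.54. They limit the precision of genes with few reads, and floors (3 reads) cover counting error only. Strand use in counting was not stated, so reads of overlapping genes cannot be told apart.

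Groups and replicate numbers came from the sample titles. Genes with a mean of at least 10 were tested (20836, with 481 left out) with limma (version 3.58.1, eBayes with trend) in R 4.3.3 on log2(value + 1), which understates changes of weak genes, with Benjamini-Hochberg adjustment over all tested genes. Alternatives were other pseudocounts (0.1 and 10), filters and scalings, no trend, sample quality weights, a replicate block, thinned reads (15874701 per library), leaving out each library, and edgeR (version 4.0.16) and DESeq2 (version 1.42.0) on the recovered reads. The tests were checked on simulated data. The members and lists were chosen with earlier results of these data known. Counts at an unadjusted limma p under 0.05 are given without the share of all tested genes, so they are no result about a set. Named were all members, from each list at most 3 genes per direction by ascending p, all called genes of a list with 5 or fewer, and the 5 genes most like each called member. Gene IDs matched a table of names for 20509 rows (96.2%), all 8 members among them. The genes cp, ela2, krt4 and krt5 and the remaining tested targets of the receptor were named after their values were seen. A further listed gene is not reported here. Promoter and protein sequences were not analysed here.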

Additional observations from a re-analysis of the deposited data

How the results depend on the processing

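The number of called members stayed between 3 and 5 in all 18 alternative fits, beside 4 in the reported fit. Called in every fit that tested them were ahr2, ahrra and ahrrb, while ahr1b was called in 11 of 18 and tiparp in 4 of 18 (limma adjusted p 0.0128 with sample quality weights and 4.61e-05 with the replicate block, beside the pair of left-out libraries named above). Upper-quartile and quantile scaling shifted the median log2 fold change over all genes by at most 0.0122. The difference between feedback genes and the other roles was 1.67 to 2.13 in every fit that held all 8 members. With a mean of at least 100, ahr1a and ahrrb were not tested and the difference was not computed.

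Over all genes, 536 were called, and 165 without the mean-variance trend, 984 with sample quality weights and 213 to 709 when a library was left out, the lowest without DMSO replicate 2, with 330 and 258 without Tan I replicate 1 or 2, and the highest without Tan I replicate 3. The cause of these differences was not tested. With the replicate block 1093 were called. The deviations of same-numbered libraries correlated at 0.08, -0.03 and 0.21 across genes, and 2 of the 3 Tan I libraries correlated best with the DMSO library of their own number, while Tan I replicate 2 correlated best with DMSO replicate 1. As not every pair was over 0.1, the libraries were taken to share only a number. Depth limits ahr1a most, at 3 to 34 reads per library.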

Other observations

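Further gene groups around the receptor were described. Of 18 tested genes of ADP-ribosylation, the chemistry of TIPARP, 1 was called (5.56%, beside 2.57% of all tested genes). The median log2 fold change was -0.03. The called gene, parp4, had 521, 529 and 434 normalized reads in Tan I libraries and 351, 367 and 348 in DMSO libraries (log2 fold change 0.47, limma adjusted p 0.0218). Next in each direction were parp12a (0.44) and parp9 (0.37) above 0, and macrod2 (-0.23), parp1 (-0.17) and parp2 (-0.17) under 0, none of them past the threshold. Enzymes of the kynurenine route, which turn tryptophan into products that can bind the receptor, were under 0 in 8 of 10 cases. Their median was -0.20, and 48.5% of all tested genes were above 0. None of the 10 was called by limma, edgeR or DESeq2, which is near the 2.57% of all tested genes and no result about the route. Among the 10, 2 had an unadjusted limma p under 0.05. They were ido1, whose product opens the route (log2 fold change -0.79, limma adjusted p 0.086), and kmo (-0.24, limma adjusted p 0.229). The normalized count of ido1 was 24.9, 30.9 and 32.7 in Tan I libraries and 49.7, 57.1 and 47.8 in DMSO libraries, which did not overlap. The value of tdo2b was -0.49, and those of kynu and afmid, at 0.04 and 0.01, were the ones above 0.

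The genes next to the members in the RefSeq annotation of GRCz12tu were compared, a choice made after the values were seen. Of 9 such protein-coding neighbours with a tested row, the members themselves left out, 0 were called by limma, edgeR or DESeq2 and 0 had an unadjusted limma p under 0.05. Limma called 2.57% of all tested genes, so 0 of 9 is near that share and no result about the neighbours. Their log2 fold changes ran from -0.20 to 0.06. The gene exoc3 beside ahrrb had 0.06 and pigm beside ahrra had -0.10, where these repressors had 3.53 and 2.34. On the other side of ahr2 from ahr1b, cntnap5b had -0.10.

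Likeness to each called member was measured as Pearson's r of log2 levels over the 6 libraries. The libraries form a pair of groups, so r mostly reflects the difference between them, and 135 genes (for ahr1b) to 260 genes (for ahrra) had an r above 0.95 with a called member. Most like ahr2 were cyp1c2 (r = 0.998), pank1b (0.998), ahrrb (0.998), cyp1a (0.995) and wfikkn1 (0.995). Of these, pank1b was not called (log2 fold change 0.11, limma adjusted p 0.44). Most like ahrrb were cyp1a (0.998), ahr2 (0.998), slc7a7 (0.997), cyp1c2 (0.997) and rhcgl1 (0.996). The genes nearest to ahrra were others, namely snap23.1, gsto2, ugt2a7, tspan35 and lonrf1, with r of 0.997 or above. Of these, snap23.1 was not called (log2 fold change 0.16, limma adjusted p 0.301). Nearest to ahr1b were rbm25b, col6a2, lcor, SLC25A29 and plch2a, with r of 0.991 or above and with none of them called.

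Within the Tan I group, the libraries did not order the feedback genes alike. Among the Tan I libraries, replicate 1 had the highest tiparp (1644 normalized reads, against 1183 in replicate 3) and the lowest ahrra (168, against 212 in replicate 3) and cyp1a (21051, against 29308 in replicate 3). Among the DMSO libraries, replicate 1 had the highest tiparp (1203), ahrrb (17.3) and cyp1a (849.6). For ahrra, DMSO replicates 1 and 3 were level (40.5 and 40.0 normalized reads, from 35 and 36 reads). The DMSO values of ahrrb rested on 15, 12 and 9 reads, so the order of these libraries is uncertain for both repressor genes. With 3 libraries a group this was not tested.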
